A study of Mus musculus with 19 samples.

Results

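The comparison described here is that of inguinal white adipose tissue (iWAT) between MCK-Musclin and wild-type (WT) mice after cold exposure. It rests on 6 of the 19 libraries of the series, 3 per genotype, chosen by their labels, and on the 12197 genes of 13756 in the iWAT table whose mean FPKM over the 6 libraries was at least 1. The study asked how Musclin, a peptide secreted by skeletal muscle and encoded by *Ostn*, acts on fat. MCK-Musclin mice carry the *Musclin* coding sequence under the muscle creatine kinase promoter, a promoter of differentiated muscle fibers. All mice were 5-month-old males on the C57BL/6J background, fed chow and housed at 8 °C for 1 week before iWAT was taken. Both groups were thus cold-exposed, and WT mice kept warm are not part of the table. The study made several founder lines and the line sequenced is not given in the sources used here. According to the labels the 3 libraries of a group are biological replicates.

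Inguinal fat is a subcutaneous depot of white adipocytes. In the cold, sympathetic nerves release noradrenaline onto it, and some of its adipocytes become beige: they fill with mitochondria, express the uncoupling protein Ucp1 and burn fatty acids to make heat, as brown adipocytes do. The pad also encloses the inguinal lymph node, with its B cell follicles, T cell zones and stroma, and it lies beside skeletal muscle and skin, so that dissection can bring these along. In RNA from a whole pad, fewer cells of a type and less RNA per cell cannot be told apart.

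Values below are FPKM, the fragments of a gene relative to its exon length and to all mapped fragments, and differences are MCK-Musclin minus WT on the scale of log2(FPKM + 1), which understates the change of genes near 0. Where 3 values are given for a group, they are those of its libraries 1, 2 and 3 in that order. A gene is called higher or lower at the cutoff if its limma p was below 0.05 and its log2 difference was above 0.5 or below -0.5, the cutoff the study used for its own test. The authors did not use strand, so reads from genes whose exons overlap cannot be assigned with certainty, and among the genes named below this concerns *Ostn*, *Tnnc2*, *Elovl3*, *Fabp3*, *Prdm16*, *Gpd1*, *Hk1*, *Icam1*, *Adrb3*, *Adcy3*, *Sik2*, *Foxp3*, *Slpi*, *Mzb1*, *Vcam1*, *Cxcl10*, *Irf7*, *Ciita*, *Psmb8*, *Tap1*, *Tapbp*, *Nfkb2*, *Top2a*, *Rpl18*, *Rpl12*, *Arntl*, *Bhlhe40*, *Nr1d1*, *Dbp*, *Bmp4*, *Cish* and *Phospho1*. With 3 libraries against 3, no gene had an adjusted p below 0.05 with limma and Benjamini-Hochberg adjustment, and the smallest adjusted p was 0.0912. The difference was positive in 7482 genes (61.3% of those tested). At an unadjusted p below 0.05 there were 1592 genes higher in MCK-Musclin mice (13.1% of those tested) and 420 lower (3.44%). At the cutoff 615 genes were higher (5.04%) and 110 lower (0.902%). In 2183 genes (17.9%) all MCK-Musclin libraries exceeded all WT libraries, and in 663 (5.44%) all were below them. These percentages are the background against which the counts of each gene group should be read. Higher genes made up 84.8% of those at the cutoff, but 69.5% with median-ratio scaling and 98.5% when levels were centred on the general adipocyte genes, which moved the median of all genes from 0.06 to 0.27. Without the first WT library 211 genes were lower at the cutoff and 86 had an adjusted p below 0.05. The log2 differences of all genes tested, of which more were higher than lower at the cutoff, are drawn in the plot that follows.

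**Figure D1:**
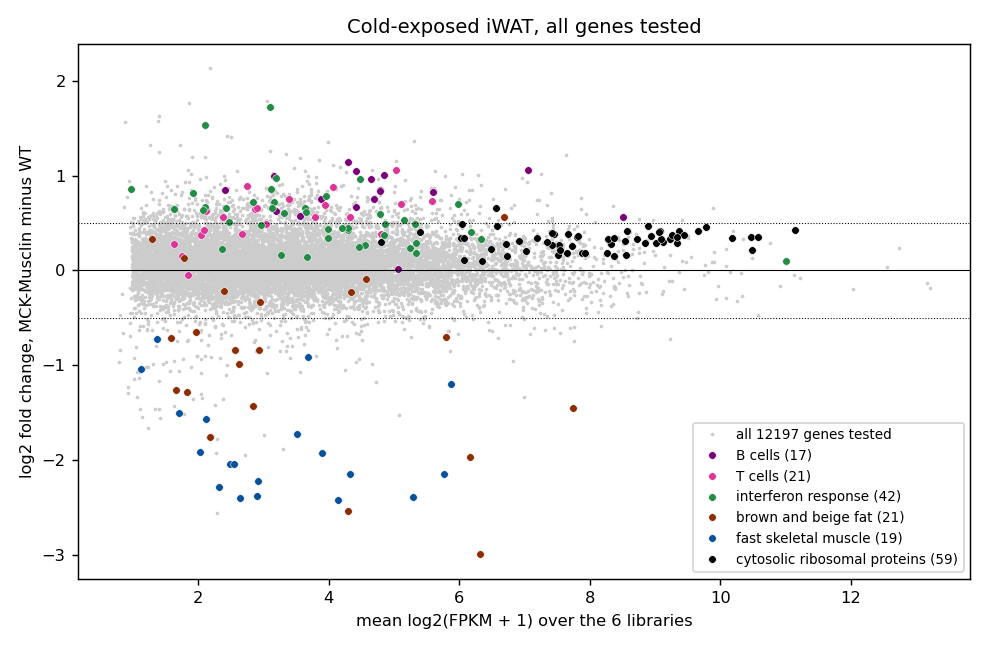
The log2 difference, MCK-Musclin minus WT, of the 12197 genes tested. Lines mark the log2 part of the cutoff. At the full cutoff, which also asks for the unadjusted limma p, 615 genes were higher and 110 lower.

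Summed FPKM was 367165, 364710 and 368500 in WT and 376564, 381297 and 384104 in MCK-Musclin libraries, so the totals separated the groups. Genes at 1 FPKM or more numbered 11985, 12046 and 12126 in WT and 12150, 12173 and 12169 in MCK-Musclin libraries. The factors of the median-ratio scaling were 0.980, 0.978 and 0.977 in WT and 1.02, 1.05 and 1.04 in MCK-Musclin libraries. The sums of tissue signatures given below were not rescaled for this. Read depth is unknown. *Ostn* (ENSMUSG00000052276, GRCm38 chromosome 16, plus strand, 27307489 to 27351212) checks the genotype only in part, because the transgene is driven in muscle and not in fat. It was listed at 0, 0 and 0.225 FPKM in WT mice, as against 0, 5.17 and 4.21 in MCK-Musclin mice, with a log2 difference of 1.57 (SE 0.63, limma adjusted p = 0.281). In the library labelled MCK-Musclin 1 it is thus listed at 0, as in the first 2 WT libraries, while the other 2 MCK-Musclin libraries were above every WT library. That library also resembled WT library 1. Across genes, which are not independent replicates, their Pearson correlation of log2(FPKM + 1) was 0.983, the highest of the 15 pairs of libraries. MCK-Musclin library 1 correlated nearly as well with MCK-Musclin library 3, at 0.979, and at 0.976 with MCK-Musclin library 2. With WT libraries 2 and 3 its correlation was lower, at 0.969 and 0.956. WT library 1 and MCK-Musclin library 1 were also almost free of muscle RNA, as described below. The part of muscle RNA in these correlations was not tested. Leaving out MCK-Musclin library 1 gave 700 genes higher (5.74%) and 178 lower (1.46%) at the cutoff. Of these, 524 and 87 were called with all 6 libraries too.

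Muscle RNA was present in unequal amounts. Of 21 fast skeletal muscle genes 19 could be tested, and all 19 were highest in the third WT library. *Tnnt3*, fast troponin T, had 2.55, 207 and 968 FPKM in WT and 2.46, 32.1 and 42.6 in MCK-Musclin mice, and *Acta1*, skeletal alpha-actin, had 1.11, 36.9 and 311 in WT and 1.48, 15.2 and 10.2 in MCK-Musclin mice. Both first libraries were thus almost free of muscle and the third WT library held the most. The summed FPKM of the 138 genes that marked tibialis anterior muscle among the 7 tissues of the series ran at 1332, 2489 and 8291 in WT and at 1276, 1424 and 1358 in MCK-Musclin mice (exact two-sided permutation p = 0.3, where 0.1 is the smallest possible). The groups overlapped and none of the 19 genes was at the cutoff, although all 19 differences were negative, with a median of -2.05 against 0.06 over all genes tested. Without the first WT library 18 of the 19 were lower at the cutoff. Of the 102 tibialis anterior genes tested 8 were lower at the cutoff, and 64 without the first WT library. Among MCK-Musclin libraries *Ostn* is listed at 0 in the one almost free of muscle RNA, and the part of muscle RNA in its values was not tested.

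**Figure D2:**
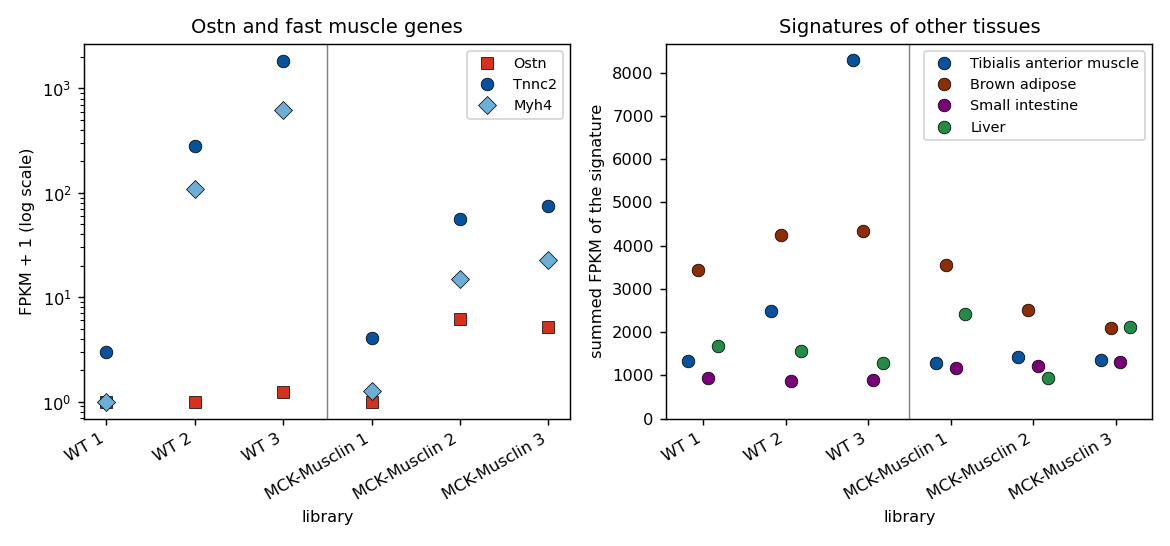
Left, FPKM + 1 on a log axis of *Ostn* and of the fast muscle genes *Tnnc2* and *Myh4* in each library; right, FPKM summed over the genes that mark 4 other tissues, with points shifted sideways so that they do not cover each other. Muscle signal peaks in WT library 3, at a sum of 8291, whereas *Ostn* stands out in MCK-Musclin libraries 2 and 3.

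The level of browning genes varied widely among the libraries of MCK-Musclin mice, so that the groups overlapped. Of the 24 brown and beige fat genes 21 were tested, and 11 were lower at the cutoff and 1 higher, with a median log2 difference of -0.84. The mean log2 level over these genes was 3.67, 4.06 and 4.29 in WT mice, as against 3.78, 3.01 and 2.48 in MCK-Musclin mice. The first MCK-Musclin library, the one without *Ostn*, was therefore within the WT range, and the other 2 were below all WT libraries. Among WT mice the third library had the highest level of 13 of the 21 genes, and the third MCK-Musclin library had the lowest level of 15.

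*Ucp1*, the uncoupling protein that turns the proton gradient into heat, spanned the widest range, with 130, 248 and 346 FPKM in WT and 173, 31.6 and 2.91 in MCK-Musclin mice. The log2 difference was -3.00 (SE 1.21, limma adjusted p = 0.282) at the cutoff. It was -4.31 without the first MCK-Musclin library, still at the cutoff, and -1.58 without the third, and *Ucp1* was short of the cutoff without any 1 of the other 5 libraries, with robust estimation or with the replicate block. *Cidea*, a lipid droplet protein of thermogenic adipocytes, went from 290, 358 and 427 FPKM in WT to 294, 103 and 70.2 in MCK-Musclin mice. *Elovl3*, a fatty acid elongase induced in cold fat, had 5.39, 7.61 and 9.58 in WT and 5.79, 0.708 and 0.29996 in MCK-Musclin mice. In all of these the first MCK-Musclin library fell among the WT libraries, so that the groups overlapped. *Ppargc1a*, a coactivator of mitochondrial biogenesis, was one of 4 genes of the list whose groups did not overlap downward, at 7.16, 7.23 and 6.51 FPKM in WT and 6.34, 2.96 and 2.01 in MCK-Musclin mice.

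The WT libraries also differed among themselves, and the third, rich in muscle RNA, had the highest levels of most of these genes. *Fabp3*, a fatty acid binding protein of heart, muscle and brown fat, had 18.4, 52.1 and 104 FPKM in WT and 21.2, 6.83 and 2.14 in MCK-Musclin mice. *Cox7a1*, the cytochrome c oxidase subunit of heart, muscle and brown fat, had 80.7, 177.1 and 196 in WT and 90.5, 40.1 and 11.7 in MCK-Musclin mice. Muscle expresses both genes, and the part of the muscle RNA in these values was not tested. *Ucp1* and *Cidea* had the same ranking of libraries as these 2 genes. Without the third WT library 2 of the 21 genes were lower at the cutoff, without the second 5, without the second MCK-Musclin library 4 and without the third 3, so the count of 11 needs each of these 4 libraries; without the first MCK-Musclin library it was 14.

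Some brown fat genes did not share this ranking of the libraries. *Ucp3*, a relative of Ucp1 expressed in muscle and brown fat, was flat at 26.2, 24.1 and 21.0 FPKM in WT and 23.3, 23.2 and 20.0 in MCK-Musclin mice. *Prdm16*, the transcription factor that sets brown and beige identity, had 4.32, 4.94 and 4.72 in WT and 3.71, 4.24 and 3.66 in MCK-Musclin mice, without overlap but with a log2 difference of only -0.22 (SE 0.11, limma adjusted p = 0.362). *Epsti1*, listed among beige genes and also induced by interferon, was the single member higher at the cutoff, at 94.7, 83.2 and 74.1 FPKM in WT and 133, 127 and 111 in MCK-Musclin mice.

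**Figure D3:**
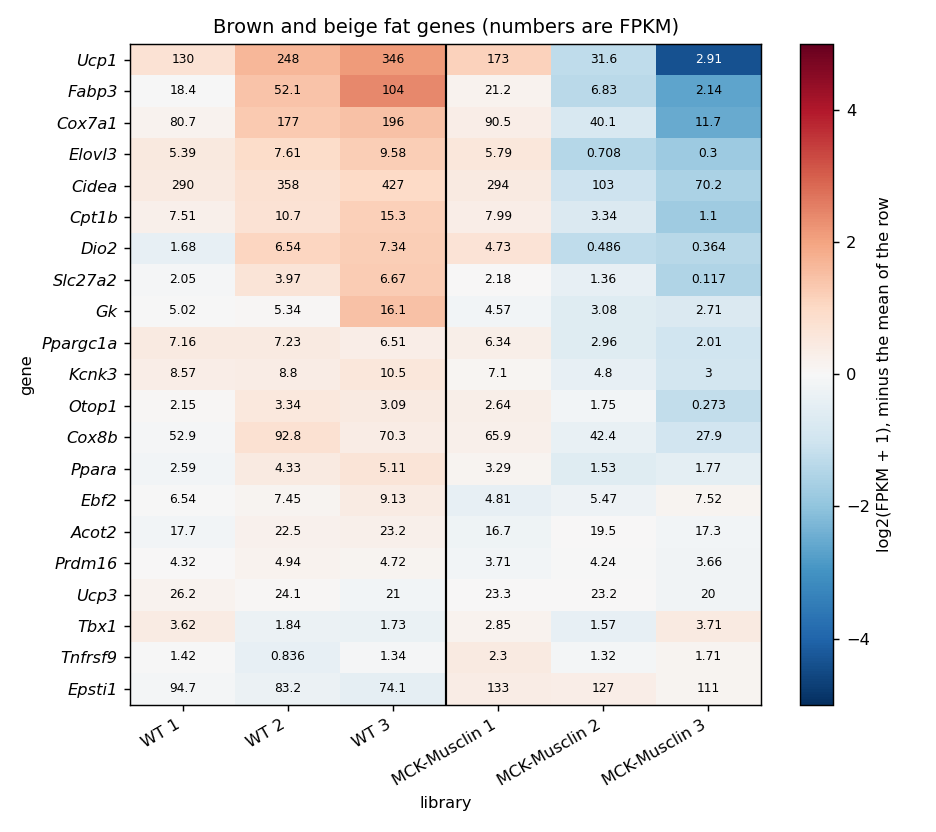
The 21 tested brown and beige fat genes (lines of the grid) in the 6 libraries (columns), with the FPKM printed in each cell and the color showing log2(FPKM + 1) minus the mean of the gene over the 6 libraries. MCK-Musclin library 1 is colored like the WT libraries, and in library 3 *Ucp1* is at 2.91 FPKM while *Ucp3* is at 20.0.

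Genes for burning fuel were lower in the same libraries as the browning markers. Of 30 genes of fatty acid oxidation 9 were lower at the cutoff (median -0.36), among them *Acadm*, the medium-chain acyl-CoA dehydrogenase, with 324, 321 and 426 FPKM in WT and 309, 227 and 186 in MCK-Musclin mice. That count was 1 without the third MCK-Musclin library, 2 without the third WT library, 3 without the second MCK-Musclin library, 5 without the second WT library and 12 without the first MCK-Musclin library. Of 27 tricarboxylic acid cycle genes 3 were lower, with 11 without the first and 0 without the third MCK-Musclin library, and of 49 genes of oxidative phosphorylation 1 was, *Cycs*, the electron carrier cytochrome c. The median of the oxidative phosphorylation list was -0.22, but -0.01 if levels were centred on the general adipocyte genes. Differences were negative in 29 of 30 fatty acid oxidation, 26 of 27 tricarboxylic acid cycle and 48 of 49 oxidative phosphorylation genes. In these lists 15, 9 and 12 genes did not overlap downward, against 5.44% of all genes. Signature genes of brown adipose tissue, defined from the 7-tissue table without these libraries, ranked the libraries in a like way: their summed FPKM was 3447, 4250 and 4340 in WT and 3546, 2503 and 2093 in MCK-Musclin mice (exact two-sided permutation p = 0.2), and the signature shares 8 genes with the brown and beige list, 6 each with the fatty acid oxidation and tricarboxylic acid cycle lists and 4 with oxidative phosphorylation. Of the 51 signature genes tested 21 were lower at the cutoff, a count that was 8 without the third WT library or without the third MCK-Musclin library, 11 without the second MCK-Musclin library, 13 without the second WT library and 29 without the first MCK-Musclin library.

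Genes of general adipocyte identity were mostly short of the cutoff. Of 23 genes that all adipocytes express 1 was lower at the cutoff, *Gpd1*, which makes glycerol phosphate for triglycerides. The median was -0.25, 20 of the 23 differences were negative, 6 genes did not overlap downward (5.44% of all genes) and 5 were lower at p below 0.05 (3.44%). The count of 1 was 3 without the second MCK-Musclin library and 2 without the second WT, the third WT or the first MCK-Musclin library. *Adipoq*, which encodes adiponectin, had 998, 1099 and 1068 FPKM in WT and 849, 980 and 1010 in MCK-Musclin mice, overlapping. Of 19 white fat genes and adipokines none was at the cutoff, and of 20 progenitor genes 1 was, *Icam1*. The medians of these 2 lists were -0.04, which turned to 0.17 when levels were centred on the general adipocyte genes, and 0.11.

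The upstream cold signal gave mixed values. *Adrb3*, the main adrenergic receptor of mouse adipocytes, was not separated, at 55.9, 93.6 and 66.9 FPKM in WT and 59.3, 93.7 and 70.2 in MCK-Musclin mice. *Adrb1*, the beta-1 receptor, was lower without overlap, at 4.37, 2.46 and 3.28 in WT and 1.10, 1.47 and 1.08 in MCK-Musclin mice (log2 difference -0.96, SE 0.18, limma adjusted p = 0.143). It held in the first MCK-Musclin library as well, unlike the genes that follow *Ucp1*. *Prkar2b*, the main regulatory subunit of protein kinase A in fat, had 260, 303 and 302 FPKM in WT and 215, 200 and 217 in MCK-Musclin mice, also without overlap and with a log2 difference of -0.45, which is short of the cutoff. Of 29 tested genes of cAMP and protein kinase A signaling 3 were lower at the cutoff (*Adcy3*, *Adrb1* and *Sik2*) and 1 was higher, *Pde4b*, a phosphodiesterase that degrades cAMP and is abundant in immune cells. Without the second WT library 1 was lower.

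*Ppp1r3b* and *Hk2*, which act in glycogen and glucose use, were lower in all MCK-Musclin libraries than in any WT library. *Ppp1r3b*, which targets protein phosphatase 1 to glycogen, had 34.8, 6.37 and 25.0 FPKM in WT and 5.31, 2.91 and 4.57 in MCK-Musclin mice, the largest decrease of the genes at the cutoff whose groups did not overlap (log2 difference -1.88, SE 0.54, limma adjusted p = 0.181). *Hk2*, the insulin-responsive hexokinase, had 38.7, 19.4 and 32.0 in WT and 14.7, 15.2 and 13.0 in MCK-Musclin mice. Of 25 genes of glycolysis and glucose uptake tested 23 had a negative difference, and *Hk2* alone was lower at the cutoff. At a limma p below 0.05, 11 were lower (3.44% of all genes), and 8 did not overlap downward (5.44%). *Hk1*, the hexokinase of most tissues, was higher at the cutoff, with 10.6, 8.91 and 10.1 in WT and 13.7, 15.5 and 15.3 in MCK-Musclin mice. The count of 1 lower was 7 without the first MCK-Musclin library, 5 without the first WT, 4 without the second WT and 3 without the second MCK-Musclin library, and without the second WT library *Hk1* was short of the cutoff. Lipogenic genes followed another library order: 20 of 22 genes of de novo lipogenesis and 18 of 24 of cholesterol synthesis were highest in the first WT library, and 3 and 1 were lower at the cutoff. The former count was 8 without the first MCK-Musclin library and 1 without the first WT, the second MCK-Musclin or the third MCK-Musclin library.

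Nearly all B cell markers were higher at the cutoff in MCK-Musclin mice. Of 17 B cell genes 16 were higher at the cutoff and 15 did not overlap, against 5.04% and 17.9% of all genes, with a median log2 difference of 0.84. *Cd79a*, a chain of the B cell receptor complex, had 135, 81.7 and 66.9 FPKM in WT and 151, 204 and 224 in MCK-Musclin mice (log2 difference 1.06, SE 0.27, limma adjusted p = 0.156). *Ms4a1*, which encodes the surface protein CD20, had 29.4, 15.9 and 15.9 in WT and 31.2, 40.6 and 36.7 in MCK-Musclin mice. In these genes the first WT library was the highest WT library and lay closest to the MCK-Musclin libraries. The exception was *Ebf1*, a transcription factor that adipocytes and their precursors also express, at 32.3, 34.3 and 30.3 FPKM in WT and 29.7, 36.0 and 32.6 in MCK-Musclin mice. Between 12 and 16 of the 17 genes were at the cutoff when any 1 library was left out.

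T cell genes were also higher, though by less. Of 21 tested 13 were at the cutoff and 17 did not overlap, with a median of 0.57. *Zap70*, the kinase that starts T cell receptor signaling, had 4.64, 3.42 and 3.78 FPKM in WT and 7.79, 8.41 and 8.26 in MCK-Musclin mice (log2 difference 0.89, SE 0.12, limma adjusted p = 0.143). *Cd8a*, the coreceptor of cytotoxic T cells, had 6.06, 3.9997 and 4.93 in WT and 8.97, 8.44 and 7.80 in MCK-Musclin mice. *Cd4*, the coreceptor of helper cells, had 24.8, 21.7 and 23.9 in WT and 36.6, 26.3 and 30.1 in MCK-Musclin mice, without overlap but short of the cutoff. *Foxp3*, the factor that defines regulatory T cells, had 2.39, 2.72 and 2.83 in WT and 3.34, 1.71 and 2.74 in MCK-Musclin mice, with full overlap.

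Genes of lymph node stroma were higher in the same libraries, 9 of 12 at the cutoff with a median of 0.61, and 6 without the second or the third WT library or without the third MCK-Musclin library. *Ccl19*, the chemokine that calls T cells and dendritic cells into the T zone, had 10.2, 8.15 and 9.20 FPKM in WT and 16.7, 27.3 and 13.3 in MCK-Musclin mice. *Cxcl13*, the chemokine of B cell follicles, had 257, 105 and 79.6 in WT and 252, 246 and 439 in MCK-Musclin mice, and *Madcam1*, an address molecule of lymphocyte entry, had 0.812, 1.34 and 0.742 in WT and 1.94, 1.58 and 2.17 in MCK-Musclin mice. The mean log2 level of the 12 genes was 4.19, 3.90 and 3.88 in WT and 4.53, 4.58 and 4.70 in MCK-Musclin mice. Genes of the lymph node list and lymphocyte genes were thus higher in the same libraries. The lymph node and B cell lists share a gene at the cutoff, so they are not fully separate. How much of the lymphocyte signal came from the node rather than from the fat around it was not tested.

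**Figure D4:**
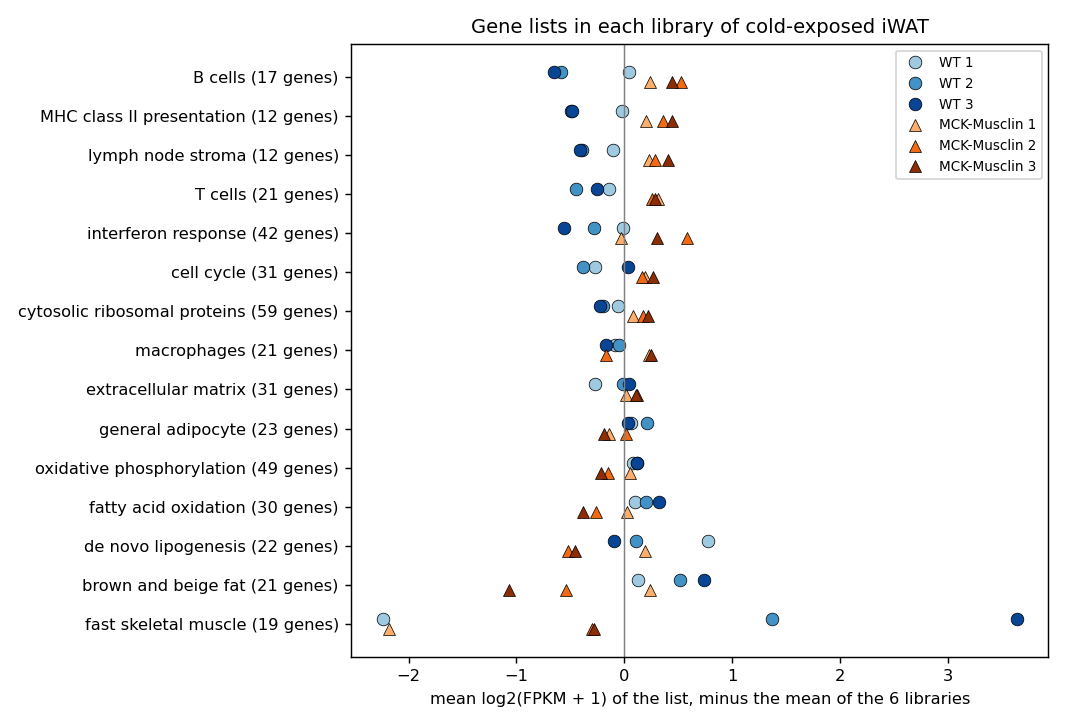
Mean log2(FPKM + 1) of the tested genes of 15 lists in each library, as the difference from the mean of the 6 libraries, with circles for WT and triangles for MCK-Musclin libraries. For the B cell, T cell, lymph node and class II lists all 3 triangles lie to the right of the circles, whereas for the brown and beige list the triangle of library 1 lies among the circles.

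Other leukocyte genes were higher in part. Of 12 genes of natural killer cells and cytotoxic granules 5 were higher at the cutoff, of 15 dendritic cell genes 5, of 21 macrophage genes 3 and of 18 genes of lipid-associated macrophages 3. Their medians were 0.38, 0.49, 0.22 and 0.24. *Itgax*, an integrin of dendritic cells and lipid-laden macrophages, had 3.21, 2.52 and 3.00 FPKM in WT and 5.67, 4.02 and 5.19 in MCK-Musclin mice, without overlap. *Cd68*, a lysosomal protein of macrophages, had 81.1, 44.0 and 65.9 FPKM in WT and 115, 75.6 and 113 in MCK-Musclin mice, with the second MCK-Musclin library inside the WT range. Without single libraries the count of macrophage genes ran from 1 (without the first or the third MCK-Musclin library) to 6 (without the second), and that of lipid-associated genes was also 6 without the second. Without the second WT library the natural killer count was 2 and the dendritic count 8, and without the first MCK-Musclin library the natural killer count was 3.

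Of 18 neutrophil genes 10 could be tested, and several of these were low. *S100a8*, an abundant neutrophil protein, had 1.49, 0.410 and 0 FPKM in WT and 3.48, 6.73 and 1.69 in MCK-Musclin mice, and *Slpi*, a protease inhibitor of neutrophils and epithelia, had 3.50, 0.398 and 0.642 in WT and 6.17, 8.37 and 11.95 in MCK-Musclin mice. The latter had the largest increase of the genes at the cutoff without overlap (log2 difference 2.13, SE 0.44, limma adjusted p = 0.143). *Mcpt2*, a mast cell protease, had 1.88, 1.09 and 0.277 in WT and 2.08, 11.9 and 6.65 in MCK-Musclin mice. Of the 10 neutrophil genes tested 4 were higher at the cutoff (median 0.65), and of 12 mast cell genes tested of 16, 5 were (median 0.38); without the third MCK-Musclin library the latter count was 2, without the second WT library 3, and without the first WT library the former was 7. Of 6 genes of plasma cells and immunoglobulin 1 was higher, *Mzb1*, and *Jchain*, the joining chain of secreted antibodies, overlapped at 23.4, 66.6 and 75.8 in WT and 55.7, 54.9 and 68.0 in MCK-Musclin mice.

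*Spic*, the transcription factor of macrophages that recycle iron from red cells, was among the largest increases, at 3.26, 7.37 and 1.55 FPKM in WT and 17.0, 11.5 and 15.5 in MCK-Musclin mice (log2 difference 1.78, SE 0.40, limma adjusted p = 0.148). *Vcam1*, an adhesion molecule that such macrophages and the stroma of lymph nodes express, was the other one of 19 genes of heme and iron recycling at the cutoff, with 33.1, 29.1 and 33.4 in WT and 48.3, 38.1 and 52.4 in MCK-Musclin mice. Its log2 difference of 0.52 was 0.47 with TPM and 0.44 with median-ratio scaling, both short of the cutoff. Of the 19 genes 9 had a positive and 10 a negative difference, with a median of -0.02. At p below 0.05, 2 were lower (3.44% of all genes). The count of 2 at the cutoff was 3 without the first WT library and 1 without the second WT, the first MCK-Musclin or the third MCK-Musclin library. *Marco*, a scavenger receptor of lymph node and splenic macrophages, overlapped at 201, 158 and 64.0 in WT and 192, 194 and 231 in MCK-Musclin mice.

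Interferon-induced genes formed the second immune pattern, and the libraries ranked differently in it. Interferons bind receptors that activate STAT proteins and IRF9, and these switch on antiviral genes through promoter elements built from repeated GAAA units. The promoters of *Ifit1*, *Isg15*, *Oas1a* and *Cxcl10*, all higher at the cutoff, are shown because they carry such units. Sequences are RefSeq's, on GRCm38.p6, from 250 bases before to 50 bases after the start of the gene and 5′ to 3′ along the gene, with capitals on every match to GAAANNGAA on either strand, so that TTCNNTTTC is the same element read from the other strand and overlapping matches run together.
Ifit1, chr19:34640639-34640938, plus strand: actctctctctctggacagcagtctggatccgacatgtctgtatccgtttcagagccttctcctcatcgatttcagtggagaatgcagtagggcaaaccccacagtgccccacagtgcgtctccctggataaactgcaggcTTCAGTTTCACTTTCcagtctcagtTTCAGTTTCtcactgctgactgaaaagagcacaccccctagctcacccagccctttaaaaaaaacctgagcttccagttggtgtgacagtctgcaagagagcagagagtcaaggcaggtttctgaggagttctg
Isg15, chr4:156200769-156201068, minus strand: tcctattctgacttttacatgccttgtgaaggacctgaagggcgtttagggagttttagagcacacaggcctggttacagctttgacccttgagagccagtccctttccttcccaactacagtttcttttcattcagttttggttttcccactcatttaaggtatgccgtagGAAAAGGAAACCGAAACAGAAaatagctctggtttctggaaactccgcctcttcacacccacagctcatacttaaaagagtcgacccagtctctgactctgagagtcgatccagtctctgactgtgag
Oas1a, chr5:120907476-120907775, minus strand: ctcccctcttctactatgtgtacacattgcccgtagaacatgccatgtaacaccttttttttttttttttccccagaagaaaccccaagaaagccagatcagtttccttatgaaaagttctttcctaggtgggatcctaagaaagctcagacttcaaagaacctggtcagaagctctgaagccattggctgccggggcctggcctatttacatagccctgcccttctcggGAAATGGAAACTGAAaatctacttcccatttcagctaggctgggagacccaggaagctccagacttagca
Cxcl10, chr5:92348840-92349139, minus strand: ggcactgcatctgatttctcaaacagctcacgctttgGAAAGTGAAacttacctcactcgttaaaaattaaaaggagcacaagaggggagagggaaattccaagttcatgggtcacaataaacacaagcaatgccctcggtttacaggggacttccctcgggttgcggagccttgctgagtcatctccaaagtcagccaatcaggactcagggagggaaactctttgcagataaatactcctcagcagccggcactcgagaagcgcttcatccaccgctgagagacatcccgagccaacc
Such a match lay in 22 of the 29 interferon response genes with a promoter in the table (75.9%), in 6 of the 10 such genes at the cutoff, in 8.56% of all 32851 promoters and in 9.06% of the 9709 tested genes with one. It was in 5 of 19 genes of MHC class I presentation and in 1 of 16 brown and beige fat genes. A match is only a run of letters and does not show that a factor was bound.

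Of the 42 interferon response genes tested 16 were higher at the cutoff, 17 did not overlap, and all 42 had a positive difference, with a median of 0.52. The mean log2 level was 3.94, 3.66 and 3.38 in WT and 3.92, 4.53 and 4.25 in MCK-Musclin mice, and 34 of the 42 genes were highest in the second MCK-Musclin library, whereas 33 were lowest in the third WT library. *Ifit1*, an antiviral protein that binds foreign RNA, had 6.64, 6.20 and 4.04 FPKM in WT and 6.71, 20.0 and 12.02 in MCK-Musclin mice. *Isg15*, a ubiquitin-like modifier, had 8.72, 4.80 and 3.78 in WT and 8.17, 18.1 and 8.11 in MCK-Musclin mice, and *Oas1a*, a sensor of double-stranded RNA, had 7.62, 6.05 and 4.62 in WT and 8.50, 10.01 and 11.9 in MCK-Musclin mice. In all 3 genes the first libraries of the groups were close to each other, and libraries 2 and 3 were further apart.

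*Cxcl10*, a chemokine that attracts activated T cells, had 2.70, 1.05 and 1.11 FPKM in WT and 2.73, 11.2 and 7.55 in MCK-Musclin mice (log2 difference 1.54, SE 0.44, limma adjusted p = 0.18). *Mx1*, an antiviral GTPase, also differed between the first libraries, at 4.54, 4.23 and 2.64 in WT and 9.88, 20.5 and 15.2 in MCK-Musclin mice (log2 difference 1.72, SE 0.27, limma adjusted p = 0.143). *Irf7*, the factor that amplifies the response, had 18.3, 18.4 and 11.9 in WT and 19.4, 25.0 and 21.0 in MCK-Musclin mice and did not reach the cutoff. The count of 16 was 29 without the first WT library, 26 without the first MCK-Musclin library, 8 without the third WT library, 7 without the second MCK-Musclin library and 11 and 13 without the third MCK-Musclin and the second WT library.

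**Figure D5:**
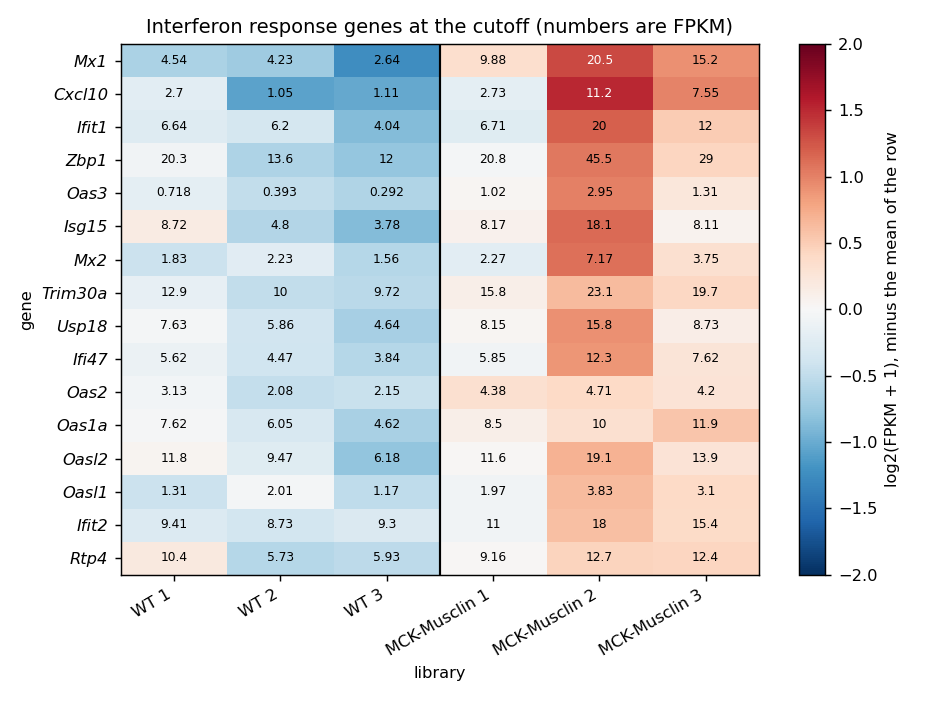
The 16 interferon response genes higher at the cutoff (lines of the grid) in the 6 libraries (columns), with the FPKM printed in each cell and the color showing log2(FPKM + 1) minus the mean of the gene over the 6 libraries. Most genes are highest in MCK-Musclin library 2, where *Ifit1* reaches 20.0 FPKM, and for most the first libraries of both groups are close to each other.

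Antigen presentation genes differed in one direction. Of 12 genes of the MHC class II pathway, which shows peptides to helper T cells, 10 were higher at the cutoff and all 12 had a positive difference (median 0.66). *H2-Aa*, a class II chain, had 222, 186 and 188 FPKM in WT and 263, 300 and 345 in MCK-Musclin mice, and *Ciita*, the master regulator of the class, had 13.1, 8.32 and 6.62 in WT and 14.4, 16.1 and 17.4 in MCK-Musclin mice. B cells and dendritic cells make these proteins, and their markers were higher in the same libraries: the B cell genes had mean log2 levels of 4.71, 4.08 and 4.01 in WT and 4.90, 5.19 and 5.10 in MCK-Musclin mice. The B cell and class II lists share a gene at the cutoff. The part of B cells and dendritic cells in the class II values was not tested. Of 22 class I genes 3 were higher at the cutoff (*Psmb8*, *Tap1* and *Tapbp*) and all 22 had a positive difference, with a median of 0.31, and without the first WT library 6 were at the cutoff. *Tap1*, the peptide transporter of class I, had 21.9, 15.4 and 16.1 in WT and 26.3, 30.1 and 24.9 in MCK-Musclin mice.

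Among inflammatory genes of the NF-kB pathway, 11 of 21 tested were higher at the cutoff and all 21 differences were positive (median 0.56). *Nfkb2*, a subunit of the alternative pathway, had 15.6, 10.3 and 11.2 FPKM in WT and 17.0, 20.4 and 21.2 in MCK-Musclin mice. *Traf1*, an adaptor of tumor necrosis factor receptors, had 7.70, 7.08 and 6.06 in WT and 12.6, 13.5 and 12.5 in MCK-Musclin mice (log2 difference 0.81, SE 0.11, limma adjusted p = 0.143). *Ccl2*, a chemokine for monocytes, had 5.68, 4.51 and 4.35 in WT and 6.04, 10.2 and 7.56 in MCK-Musclin mice. Lymphocytes express *Nfkb2* and *Traf1* as well, and the part of the B cell and T cell RNA in these values, and in those of the interferon, cell cycle and ribosomal genes, was not tested. Of 20 complement genes 1 was at the cutoff, and of 33 tested chemokines and their receptors 10 were, among them *Ccl19*, *Cxcl13* and *Cxcl10*.

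Cell cycle genes differed in one direction as well, at small size. Of 31 cell cycle genes tested 10 were higher at the cutoff, 17 did not overlap and all 31 differences were positive (median 0.35). *Top2a*, the topoisomerase of dividing cells, had 5.08, 3.41 and 7.31 FPKM in WT and 7.602, 8.04 and 8.68 in MCK-Musclin mice, and *Mcm5*, a subunit of the replication helicase, had 3.16, 2.64 and 3.22 in WT and 4.29, 4.35 and 5.47 in MCK-Musclin mice. *Mki67*, the common marker of cycling cells, overlapped at 6.19, 5.82 and 11.6 in WT and 10.3, 7.98 and 10.5 in MCK-Musclin mice. The count of 10 was 16 without the third WT library, 5 without the second and 4 without the third MCK-Musclin library. Which cells divided cannot be told from whole tissue.

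Genes for proteins of the cytosolic ribosome shared a direction. All 59 genes tested had a positive difference, 43 did not overlap (17.9% of all genes) and 35 had p below 0.05 (13.1%), and only *Rpl18* reached the cutoff. That count of 1 was 5 without the first WT or the first MCK-Musclin library, 3 without the third WT, 2 without the second WT and 0 without the third MCK-Musclin library. Their median difference was 0.33. *Rps6*, a small subunit protein, had 2082, 1777 and 2027 FPKM in WT and 2479, 2517 and 2915 in MCK-Musclin mice (log2 difference 0.43). *Rpl12*, a large subunit protein, had 446, 376 and 395 in WT and 538, 555 and 591 in MCK-Musclin mice. With median-ratio scaling the median of the list was 0.25. Ribosomal proteins of mitochondria, 76 genes, had a median of -0.07 instead, which turned to 0.14 when levels were centred on the general adipocyte genes. Of the 76, *Mrps21* alone was at the cutoff.

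Of 18 clock genes tested 1 was higher and 3 were lower at the cutoff. The median was -0.24, 15 differences were negative, 6 genes were lower at p below 0.05 and 4 did not overlap downward (3.44% and 5.44% of all genes). *Arntl*, the activator of the clock, had 1.62, 1.10 and 1.53 FPKM in WT and 2.57, 2.09 and 2.66 in MCK-Musclin mice, and its repressor *Bhlhe40* had 29.9, 13.9 and 43.8 in WT and 9.64, 11.6 and 16.5 in MCK-Musclin mice. *Nr1d1* (21.5, 31.2 and 14.8 in WT, 28.8, 42.3 and 11.7 in MCK-Musclin mice) and *Dbp* (86.7, 89.4 and 62.3 in WT, 81.3, 102 and 40.5 in MCK-Musclin mice), which swing most in the day, overlapped and were lowest in the third library of each group. The hour of dissection of each mouse is not given in the sources used here. *Arntl* was short of the cutoff without the second WT, the first MCK-Musclin or the third MCK-Musclin library and with median-ratio scaling. The count of 3 lower clock genes was 0 without the third WT library, 1 without the first MCK-Musclin library, 2 without the second MCK-Musclin library and 4 without the third MCK-Musclin library.

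Many groups showed few genes at the cutoff or none. Heat shock, p53, antioxidant and lysosome lists had none, as had 31 genes of the extracellular matrix (median 0.19), 18 of blood endothelium (0.00) and 14 of pericytes and smooth muscle (0.04). With median-ratio scaling the last 2 medians were -0.07 and -0.04. Of 9 lymphatic endothelium genes 2 were higher, *Ccl21a* and *Madcam1*, both shared with the lymph node list, and 8 of 9 were highest in the third MCK-Musclin library. Of 25 genes of TGF-beta and BMP signaling 1 was higher, the BMP antagonist *Grem1*, and 1 lower, *Bmp4*, which had 2.86, 8.95 and 11.8 FPKM in WT and 2.82, 3.32 and 1.98 in MCK-Musclin mice, with the first libraries close to each other. *Ngfr*, the neurotrophin receptor p75, which Schwann cells and the stroma of lymph follicles express, was the only one of 11 nerve genes at the cutoff, at 4.88, 3.26 and 3.43 in WT and 5.92, 5.21 and 8.00 in MCK-Musclin mice. Gland and skin genes were mostly below 1 FPKM, so that mammary epithelium and skin could hardly be followed. All 3 gland genes tested of 18 were higher (median 0.44), 2 without overlap (17.9% of all genes) and 0 at the cutoff. Their mean log2 levels were 1.84, 1.36 and 1.83 in WT and 2.22, 2.11 and 1.97 in MCK-Musclin mice. Of 3 skin genes tested 1 was higher at the cutoff, and the median was -0.03.

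The 10 genes with the smallest p were all higher in MCK-Musclin mice. *Tmod2*, a tropomodulin that caps actin filaments (GRCm38 chromosome 9, minus strand, 75565621 to 75611325), had 1.13, 0.908 and 1.27 FPKM in WT and 4.52, 4.42 and 3.80 in MCK-Musclin mice (log2 difference 1.32, SE 0.13, limma adjusted p = 0.0912). *Grap2*, an adaptor of T cell receptor signaling, had 9.19, 7.94 and 9.76 in WT and 18.8, 19.4 and 17.9 in MCK-Musclin mice. *Serpina3g*, a serpin of activated leukocytes, had 19.0, 15.2 and 15.6 in WT and 33.1, 36.4 and 37.4 in MCK-Musclin mice. Each of these separated all libraries, including the first of each group, with a narrow spread.

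Among the same 10 were genes not tied to leukocytes alone. *Mrps21*, a protein of the small mitochondrial ribosomal subunit, had 92.8, 89.0 and 99.7 FPKM in WT and 166, 180 and 197 in MCK-Musclin mice (log2 difference 0.94, SE 0.10, limma adjusted p = 0.0912). *Camk2g*, a calcium-dependent kinase, had 11.1, 13.6 and 9.63 in WT and 23.7, 27.5 and 25.1 in MCK-Musclin mice. The other members were *Arhgap30*, *Pstpip1*, *Zap70*, *Traf1* and *Rinl*.

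On the lower side, *Cish*, a feedback inhibitor of cytokine and growth hormone signaling, had one of the narrowest spreads, at 3.71, 4.30 and 3.26 FPKM in WT and 1.96, 1.31 and 1.22 in MCK-Musclin mice (log2 difference -0.94, SE 0.16, limma adjusted p = 0.143). *Smtnl2*, a smoothelin-like protein, had 3.64, 1.18 and 6.25 in WT and 0.153, 0.352 and 0.476 in MCK-Musclin mice. *Sox6*, a transcription factor known from muscle and cartilage, had 5.001, 7.09 and 4.10 in WT and 2.96, 2.55 and 1.65 in MCK-Musclin mice. Groups did not overlap in any of the 3. *Smtnl2* is one of the tibialis anterior signature genes and was highest in the WT library with the most muscle RNA, whose part in its values was not tested. *Phospho1*, a phosphatase abundant in brown fat, had 9.08, 12.3 and 23.1 in WT and 8.08, 2.77 and 1.51 in MCK-Musclin mice, with the first MCK-Musclin library close to the WT libraries.

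Among other tissues, liver-like transcripts were unequal between libraries and the groups overlapped. *Mup11*, a major urinary protein made mainly by liver and one of a family of near-identical copies whose reads may be split, had 164, 218 and 94.7 FPKM in WT and 426, 48.4 and 337 in MCK-Musclin mice. The summed FPKM of the liver signature was 1671, 1563 and 1285 in WT and 2414, 950 and 2117 in MCK-Musclin mice (exact two-sided permutation p = 0.5). Of 117 liver genes tested 7 were higher and 3 lower at the cutoff (5.04% and 0.902% of all genes). Groups did not overlap upward in 15 of them and downward in 7 (17.9% and 5.44% of all genes). Signature genes of small intestine summed to 939, 872 and 897 in WT and 1160, 1215 and 1304 in MCK-Musclin mice. The exact two-sided permutation p was 0.1, the smallest possible. Of 128 of these genes tested 27 were higher and 3 lower at the cutoff (5.04% and 0.902% of all genes). Their median was 0.26, and 0.20 with median-ratio scaling. The signature shares 9 genes with the cell cycle list, 6 with gland and duct epithelium and 2 with skin keratinocytes. With the plasma cell, natural killer and B cell lists it shares 3, 2 and 1. Signature genes of brain summed to 996, 1045 and 1053 in WT and 1134, 1162 and 1191 in MCK-Musclin mice (exact two-sided permutation p = 0.1). Of 212 tested 21 were higher, *Tmod2* among them, and 2 lower at the cutoff (5.04% and 0.902% of all genes). The median was 0.09, against 0.06 over all genes tested, and 0.03 with median-ratio scaling. The brain signature shares 6 genes with the nerve list and 3 with the cAMP list. It also shares 2 each with the chemokine and creatine lists and 1 each with the T cell, cell cycle and glycolysis lists. The intestine and brain sums were not rescaled to the library totals, which were higher in every MCK-Musclin library.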

How the data were processed

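Poly(A) RNA of iWAT from 6 cold-exposed male mice was sequenced by the study. The authors filtered reads with fastp and Bowtie2 (2.4.1 in the submitters' processing notes, another version in the study's methods), aligned them with HISAT2 (2.1.0) to mm10 (GRCm38) without using strand, and deposited FPKM per gene. The study's methods name StringTie for the FPKM and the processing notes list Cuffdiff, so which of these made the table is uncertain. FPKM corrects for exon length and mapped reads, but a few abundant genes can shift all others, and read counts were not analysed here, so depth and counting error are unknown. The deposited iWAT table also holds the authors' own comparison (fold change, p-value, FDR and group means), which was not used, and the BAT table was not used here. Every per-library column of the iWAT table was mapped to its sample.

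Groups were compared on log2(FPKM + 1) over genes with a mean of at least 1 FPKM by limma 3.58.1 under R 4.3.3 (lmFit, then eBayes with trend), with Benjamini-Hochberg adjustment over all genes tested. Sums per library were compared by an exact two-sided permutation test. Tables and figures used Python 3.11.15 with pandas 2.3.3, numpy 2.4.6 and matplotlib 3.10.9. Tissue signatures came from the deposited FPKM of the 7-tissue table, which has 1 library per tissue: at least 10 FPKM, highest in that tissue, and at least 10 times the level in white adipose tissue (5 times for brown adipose tissue), with 1 added to each FPKM. Lists are described by counts and medians, with no test of the list.

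Genes could be named if they were *Ostn*, members of 65 hand-written lists, the 15 largest differences in each direction at the cutoff without overlap, or the 10 smallest p. The list members printed were picked with their values in view. The comparison, lists and members were chosen with earlier results of these data known.

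The fit was tested on simulated data for the 12197 genes of this comparison: an adjusted p below 0.05 was reached by 92 of 100 genes changed by 2 on the log2 scale, by 68 of 100 changed by 1, and 4.89% of unchanged genes had p below 0.05. The simulated noise was normal and independent between genes, whereas muscle and browning genes varied together between the real libraries. These shares need not hold for the real data. Alternatives were another pseudocount, filter, scaling, centring, variance estimate or log2 cutoff, the replicate number as a block, and each library left out. Promoter sequences and annotation came from RefSeq and GENCODE for GRCm38. Protein sequences were not used here. Results of some list members are not reported here.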

Additional observations from a re-analysis of the deposited data

How the results depend on the processing

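The 615 genes higher at the cutoff and the 110 genes lower at the cutoff rest on unadjusted p-values, since the number of genes with adjusted p under 0.05 (limma) was 0 with all 6 libraries and in most alternatives. Genes lower at the cutoff numbered 71 at a mean of at least 5 FPKM, which tests fewer genes, 201 with TPM, 187 with median-ratio scaling and 28 when levels were centred on the general adipocyte list. The last setting gave 1892 genes higher and 476 with an adjusted p below 0.05. By its construction it adds to MCK-Musclin values, since the general adipocyte genes had a median of -0.25. A log2 cutoff of 0.3 gave 1342 higher and 341 lower, and a cutoff of 1 gave 41 and 17. Leaving out 1 library gave 530 to 844 genes higher, 92 to 211 lower and 0 to 86 with an adjusted p below 0.05. The 86 came without the first WT library, and 2 and 1 came without MCK-Musclin libraries 2 and 3. The cause was not tested. With the replicate number as a block (replicate block) 620 genes were higher, 154 lower and 0 passed adjustment. Deviations of same-numbered libraries correlated at 0.23, 0.06 and 0.11, which was the highest value for each WT library. Other pairs ran from -0.18 to 0.07. The second MCK-Musclin library correlated slightly better with the third WT library (0.07) than with its own number. The numbers were not taken as pairs in the main fit. Whether equal numbers share a source of variation was not tested. Another pseudocount, no filter, no trend and robust estimation kept both counts within 1.5 times. Over all lists and alternatives 879 medians moved by less than the spread between replicates and 93 by more.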

Other observations

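*Tmod2* has a neighbour on chromosome 9 with a like difference. *Scg3*, which encodes a secretogranin of secretory granules, lies close by on the same strand and had 2.38, 2.41 and 2.27 FPKM in WT and 4.06, 4.96 and 4.81 in MCK-Musclin mice (log2 difference 0.74, SE 0.11, limma adjusted p = 0.143). *Lysmd2*, between them, had 7.84, 7.17 and 17.3 in WT and 18.3, 10.1 and 21.2 in MCK-Musclin mice and overlapped. On the other side of *Tmod2*, *Tmod3* had 32.8, 32.9 and 27.4 in WT and 31.2, 33.0 and 30.6 in MCK-Musclin mice, and *Mapk6*, a kinase, was lower at 64.2, 63.1 and 83.0 in WT and 55.7, 40.6 and 50.8 in MCK-Musclin mice. These genes were looked at after the values of *Tmod2* were seen.

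*Psmd3*, a proteasome subunit whose exons overlap those of *Gm12356*, split the MCK-Musclin libraries: it had 18.5, 17.99 and 18.4 FPKM in WT and 56.0, 17.7 and 48.7 in MCK-Musclin mice. *Mob1a*, a regulator of Hippo signaling, had 6.24, 5.57 and 5.24 in WT and 20.1, 6.71 and 22.3 in MCK-Musclin mice. In both genes the second MCK-Musclin library was near the WT level and the other 2 were near each other. *Mup11* was also lowest in the second MCK-Musclin library, at 48.4 FPKM, below all WT libraries (164, 218 and 94.7), and had 426 and 337 in the other 2. *Npr3*, the natriuretic peptide clearance receptor to which Musclin binds, ranked these libraries the other way, with 23.5, 106 and 26.8 in MCK-Musclin mice against 40.5, 52.2 and 34.6 in WT mice.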
